A study of Mus musculus with 11 samples.

Results

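The comparison set 4 plasma cell lymphomas (PCL1 to PCL4) against 3 mantle cell lymphomas (MCL1 to MCL3), 7 of the 11 mouse lymphomas in the series, chosen by the tumour origin in the labels. All 7 came from lymph nodes of Black 6 mice of the genotype c-myc-3'RR/p53+/-, and the labels give the stage of every one as a mature B cell. By genotype, the mice of both types had only 1 intact p53 allele and carried c-myc as a transgene. Expression of the transgene is driven by the 3'RR, the regulatory region downstream of the IgH constant genes. Whether the tumours kept the intact p53 allele was not tested. No tumour-free tissue entered the comparison. The remaining 4 arrays, Burkitt lymphomas of the same genotype, lent only their spread to the test. The p-values therefore rest on the spread within all 3 types, the Burkitt arrays included. The labels do not say that each tumour came from its own mouse. The p-values speak only of the spread among these 11 samples and could reflect technical spread. The design text numbers mantle cell samples up to 4 but counts 3, and 3 were analysed. Each type was hybridised on its own slide, so tumour type and slide cannot be told apart.

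Plasma cells are the antibody-secreting end of the B lineage. As they form, the factors Prdm1, Irf4 and Xbp1 replace the B cell programme held by Pax5, Spib and Ciita, and the secretory pathway expands. Mantle cell lymphoma in people arises from B cells of the zone around lymphoid follicles and is known for cyclin D1, CD5 and SOX11.

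RNA was labelled with Cy3 and read on one-colour arrays, which give 1 brightness value per probe. Levels below are log2 signals relative to the 75th percentile of the same array, so 0 is that percentile and a difference of 1 is a 2-fold difference. Between 55.5% and 62.2% of spots were well above background on the 7 arrays, and no spot was saturated. The RNA integrity numbers were 9, 10, 9 and 10 in PCL1 to PCL4 and 10, 8 and 10 in MCL1 to MCL3. With this number of arrays the median standard error of a PCL minus MCL difference was 0.305 on the log2 scale.

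Of 19307 genes tested, 1481 (7.67%) passed an adjusted p under 0.05 in limma, 455 (2.36%) higher and 1026 (5.31%) lower in PCL; these are termed called below. A gene name was held by 13281 of the 19307, so shares over all genes also count features without a name. The rises were larger than the falls: their median difference was 2.06, against -1.09 for the falls. A change of at least 8-fold was found in 148 genes that rose and in 50 that fell. The 4 PCL values lay wholly apart from the 3 MCL values in 4503 genes (23.3% of those tested), and in 1455 of the called ones. In 78 of the called rises no MCL array was well above background, and in 77 of the called falls no PCL array was. Such genes entered the test through 1 type alone and had to differ.

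The balance between rises and falls changed with brightness. When genes were ranked by mean signal into 4 equal bins, 135 rose and 330 fell among the 4827 dimmest, whereas 75 rose and 88 fell among the 4827 brightest. With the local background subtracted by the normexp model in place of the scanner software's own correction, the calls dropped to 227 (1.18%), 108 higher (0.559%) and 119 lower (0.616%), of which 222 were among the 1481. In the dimmest bin that left 17 rises and 0 falls, and its median difference moved from -0.22 to 0.41. The median over all genes was -0.03, and 0.14 with normexp. The normexp setting also added an offset of 50 intensity units, so each change was run alone, a choice made after the values were seen. Normexp without the offset gave 139 calls, with 14 rises and 0 falls in the dimmest bin, while the offset added to the processed signal gave 1235, with 103 and 144. The falls among dim genes were thus lost with the background model and reduced in number with the offset.

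**Figure D1:**
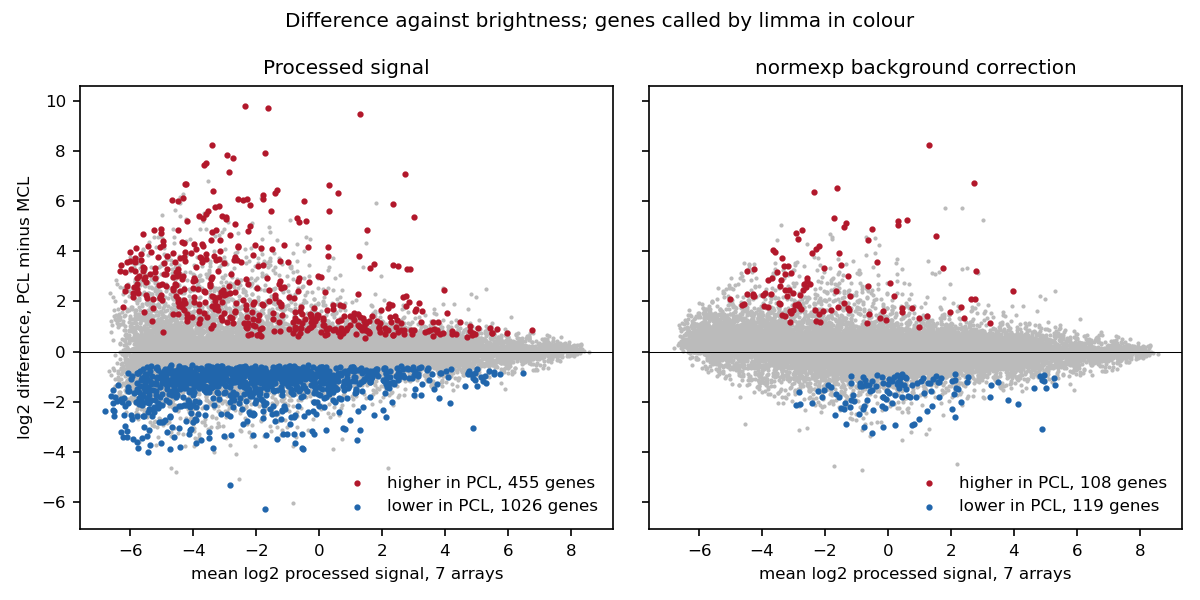
PCL minus MCL difference (log2) of every tested gene against its mean log2 signal over the 7 arrays, under the scanner software's correction and under normexp, with called genes in colour. In the dimmest bin of genes the 330 falls became 0, while in the brightest bin 88 became 25.

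The largest rises in PCL were in Rag1, Prss12 and Rd3l. Rag1 encodes the recombinase subunit that cuts immunoglobulin and T cell receptor genes in precursor lymphocytes. Its level was -2.02, 2.55, 3.36 and 3.51 in PCL1 to PCL4 and -8.0, -7.97 and -7.85 in MCL1 to MCL3. No MCL array was well above background, and PCL was at least 225-fold higher (measured difference 9.79 ± 1.62 SE, adjusted p = 0.00999; 6.35 with normexp). Its partner Rag2 was measured at -7.46, -0.89, 0.60 and 0.68 in PCL and -7.95, -7.95 and -7.84 in MCL. The measured Rag2 difference of 6.15 ± 2.09, a bound of at least 18.3-fold, did not pass (adjusted p = 0.101), and PCL1 lay beside the MCL arrays. Prss12 encodes a secreted serine protease, neurotrypsin. Prss12 stood at 1.24, 2.77, 3.02 and 3.22 in PCL and at -7.79, -6.44 and -7.29 in MCL, a bound of at least 369-fold (9.74 ± 0.73, adjusted p = 0.000163). Rd3l was 3.38, 5.84, 5.87 and 6.31 in PCL and -6.36, -2.96 and -3.04 in MCL (9.47 ± 1.05, adjusted p = 0.00166). For all of these but Rag2, every PCL value lay clear of every MCL value.

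Other large rises crossed many roles. Uchl1, a ubiquitin hydrolase abundant in neurons, was -0.40, 0.13, 1.30 and -2.45 in PCL and -7.85, -7.95 and -7.84 in MCL, which bounds the rise at 48.8-fold or more (adjusted p = 0.0024). Hey1, a repressor induced by Notch, was at least 45.4-fold higher (-3.60, -0.16, 1.44 and 0.49 against -8.08, -8.04 and -7.55; adjusted p = 0.00581). Slpi, a secreted inhibitor of leukocyte proteases, was bright in every PCL, at 5.29, 5.75, 6.11 and 5.91, and stood at -3.73, 0.80 and -1.02 in MCL (7.08 ± 0.94, adjusted p = 0.00429). Slpi was thus the brightest of these genes and did not depend on signals near background in PCL. Arap3, a GTPase-activating protein, rose by 7.74 ± 1.14 (adjusted p = 0.00636), but another probe of the gene gave 2.86. Pls1, a plastin that bundles actin, was at least 24-fold higher (adjusted p = 0.00197) and Tdrd9, a germline helicase, at least 72.0-fold (adjusted p = 0.0133). Trim63, a muscle ubiquitin ligase, was at -5.40, 2.21, 1.84 and 1.88 in PCL and -8.17, -8.09 and -8.05 in MCL, at least 68.4-fold apart (8.23 ± 1.60, adjusted p = 0.0177). Tmem255a rose by 7.92 ± 1.75 (adjusted p = 0.0271), with 2.94 from another probe. Prom1, the membrane protein CD133, was at least 23.9-fold higher (6.68 ± 1.63, adjusted p = 0.0372). PCL1 was the lowest PCL in 11 of these 12 genes, counting Rag1, Prss12 and Rd3l. With normexp 10 of the 12 were called, the exceptions being Trim63 and Prom1, and both also lost their call without PCL2, without PCL3, without PCL4 and without MCL2 (Prom1 without MCL1 and without MCL3 too).

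The largest falls were smaller and less firm. Iglon5, a neuronal adhesion protein of the immunoglobulin superfamily, was -3.86, -1.70, -4.89 and -7.21 in PCL and -0.67, 2.73 and 3.54 in MCL (-6.28 ± 1.64, adjusted p = 0.0458). Havcr1, the TIM-1 receptor of lymphocytes, was -4.53, -3.50, -5.15 and -7.31 in PCL and 1.04, -1.07 and 0.65 in MCL (-5.33 ± 1.39, adjusted p = 0.046). The groups lay apart in both genes, with a wide spread inside PCL. Arntl2, a clock factor that pairs with Clock, was tight in both groups, at -1.87, -2.56, -2.04 and -2.38 in PCL and 1.81, 2.07 and 1.09 in MCL (-3.87 ± 0.87, adjusted p = 0.0286), and its other probes gave -5.27 and -4.36. Adm, the vasodilator peptide adrenomedullin, was -1.13, -2.07, -3.13 and -2.98 in PCL and 0.25, 1.36 and 2.32 in MCL (-3.64 ± 0.73, adjusted p = 0.0198). Nrp2, a receptor for semaphorins and VEGF, ran from 2.43 in PCL1 to -2.54 in PCL4 and from 2.97 to 3.56 in MCL (-3.52 ± 0.93, adjusted p = 0.0471).

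The other large falls were Serpine2, a thrombin inhibitor (-3.90 ± 0.75, adjusted p = 0.0168), Il17rb, a receptor of interleukin 25 (-3.66 ± 0.77, adjusted p = 0.0232), and Sema5a, a semaphorin (-3.63 ± 0.77, adjusted p = 0.0235). Tcstv3, a gene of the early embryo with near-identical copies that its probe may not separate, differed by -3.84 ± 0.89 (adjusted p = 0.0316). No PCL array was well above background for Arhgap19, another GTPase-activating protein, nor for the class I-like gene H2-M9 or the lectin Clec2g. These 3 were at least 3.73-fold, 3.18-fold and 3.86-fold higher in MCL, with adjusted p of 0.0252, 0.016 and 0.0202. The other probe of Arhgap19, which stands for the gene where dim probes are not filtered, gave 0.11. Each of the 12 falls lost its call in the absence of at least 1 tumour, and with normexp only Adm was called.

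**Figure D2:**
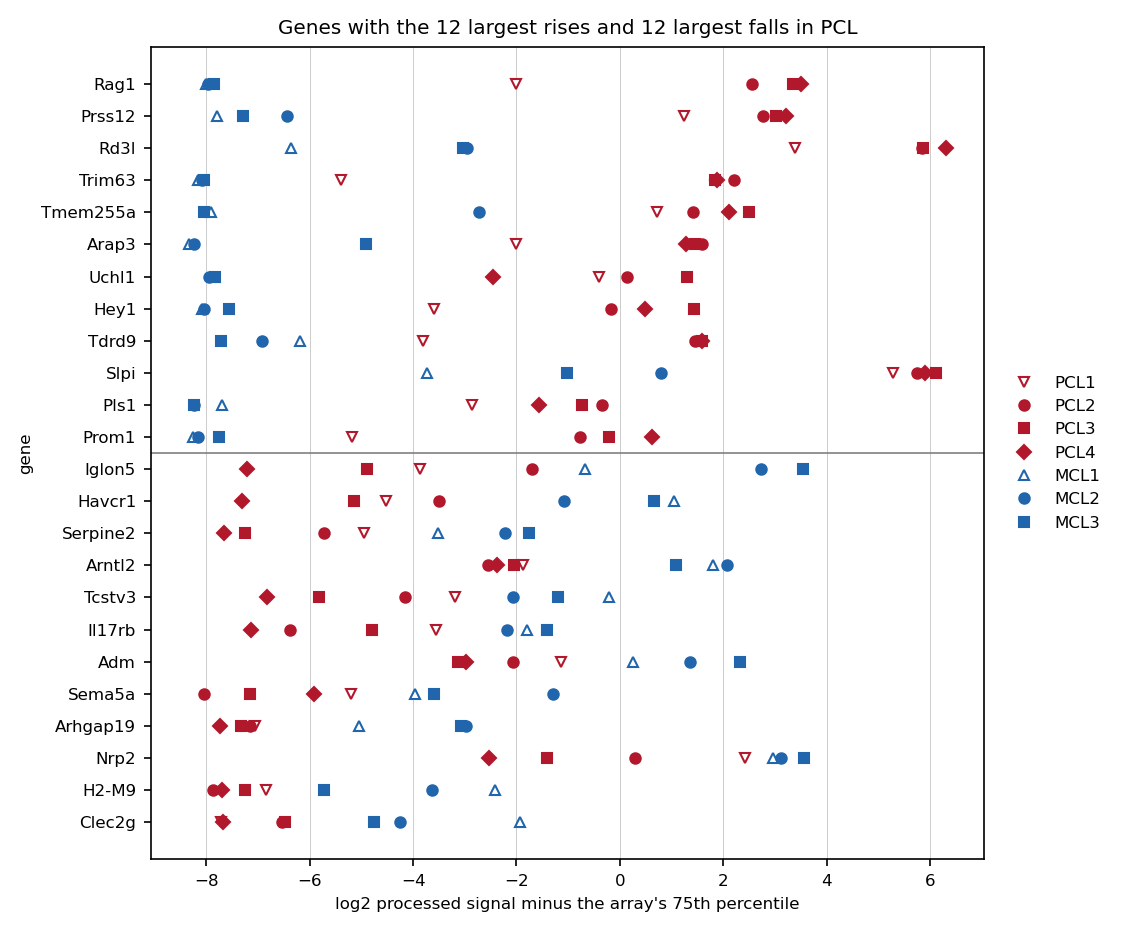
Level of the genes with the largest rises and falls in each tumour, as log2 signal relative to the array's 75th percentile. PCL1 (open triangle) is the lowest PCL in 11 of the 12 rises and the highest in 9 of the 12 falls.

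The upstream sequence of the genes at both ends of the comparison, and of Spib, the B cell factor described next, is shown because these genes mark the ends of the range and a B cell factor whose fall was called in every setting. Each run is the 250 bases before the RefSeq gene start in GRCm38.p6, read 5' to 3' on the gene's strand. Capitals mark a match on either strand to CCAAT or AGGAAG, a core letter string bound by ETS factors such as Spib and Spi1.

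Rag1 (chr2:101649533-101649782, minus strand): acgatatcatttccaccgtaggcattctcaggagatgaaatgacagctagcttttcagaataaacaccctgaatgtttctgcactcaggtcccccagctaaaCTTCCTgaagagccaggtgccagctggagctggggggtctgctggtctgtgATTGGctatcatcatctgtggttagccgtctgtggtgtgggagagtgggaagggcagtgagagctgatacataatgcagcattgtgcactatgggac

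Prss12 (chr3:123446663-123446912, plus strand): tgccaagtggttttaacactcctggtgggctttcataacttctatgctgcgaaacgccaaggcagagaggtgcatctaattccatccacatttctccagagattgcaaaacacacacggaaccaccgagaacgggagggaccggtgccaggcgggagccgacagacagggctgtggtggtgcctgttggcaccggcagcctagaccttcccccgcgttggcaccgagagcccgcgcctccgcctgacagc

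Iglon5 (chr7:43490212-43490461, minus strand): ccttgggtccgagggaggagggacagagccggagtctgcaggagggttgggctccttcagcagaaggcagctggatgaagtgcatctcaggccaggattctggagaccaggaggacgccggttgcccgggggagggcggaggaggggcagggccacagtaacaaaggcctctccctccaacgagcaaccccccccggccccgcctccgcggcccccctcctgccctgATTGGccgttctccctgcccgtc

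Havcr1 (chr11:46739973-46740222, plus strand, the first of 3 entries): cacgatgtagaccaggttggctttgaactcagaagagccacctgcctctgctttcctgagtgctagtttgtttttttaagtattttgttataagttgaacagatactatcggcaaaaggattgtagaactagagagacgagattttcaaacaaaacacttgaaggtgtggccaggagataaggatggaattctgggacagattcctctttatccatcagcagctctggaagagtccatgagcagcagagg

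Spib (chr7:44532072-44532321, minus strand): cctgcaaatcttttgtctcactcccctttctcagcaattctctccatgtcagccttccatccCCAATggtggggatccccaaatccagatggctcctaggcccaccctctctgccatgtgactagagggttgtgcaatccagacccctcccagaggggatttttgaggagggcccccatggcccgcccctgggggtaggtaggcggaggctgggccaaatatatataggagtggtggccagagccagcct

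CCAAT was found in the windows of Rag1, Iglon5 and Spib, and AGGAAG in that of Rag1. Neither was rare: CCAAT lay in 33.8% of all 32851 promoter windows, 36.6% of those of the 11345 matched genes tested, 39.4% of those of the 289 matched genes that rose and 38.3% of the 470 that fell. AGGAAG lay in 29.5% of all windows, 28.4% of those of tested genes, 32.9% of those that rose and 30.9% of those that fell. The Myc site CACGTG was present in 6.02% of all windows, 8.05% of those of tested genes, 7.96% of the rises and 5.74% of the falls. These motifs were chosen after another set had been looked at, and a match is a description of letters only.

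The factors that define plasma cells were not called between the types. None of 22 tested genes of the plasma cell programme was called, 10 were higher in PCL, and the median difference was -0.04. Irf4 was 1.77, 2.73, 3.27 and 3.20 in PCL and 2.52, 3.09 and 2.67 in MCL (-0.02, adjusted p = 0.983). Xbp1 was 2.01, 2.51, 3.20 and 2.19 in PCL and 2.92, 2.42 and 2.48 in MCL (-0.13, adjusted p = 0.847). The values of both factors overlapped between the types. Prdm1 differed by 0.74 (adjusted p = 0.454). Sdc1, the plasma cell surface marker CD138, was -3.25, -0.32, -1.02 and -0.75 in PCL and -2.50, -4.14 and -3.48 in MCL (2.04 ± 0.73, adjusted p = 0.118). Jchain, which joins IgM and IgA subunits, was 0.47, 3.46, 0.09 and 0.67 in PCL and 0.03, -3.38 and -3.49 in MCL (3.45 ± 1.26, adjusted p = 0.121). PCL1 lay among the MCL arrays for Sdc1 and MCL1 lay near the PCL arrays for Jchain. In the fit without PCL1, which called 5.13% of all genes higher and 8.16% lower, 3 genes of the programme were higher and 1 was lower.

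Immunoglobulin heavy chain genes, which encode the antibody itself, were higher in PCL for all 3 tested, and 1 was called. Igh-VJ558, a probe named for a family of variable segments, was 2.72, 1.52, 1.31 and 1.74 in PCL and -4.50, -1.95 and -3.66 in MCL (5.19 ± 1.19, adjusted p = 0.0302; 4.52 and 0.0571 with normexp). Every PCL lay above every MCL, PCL1 being the highest. Its 4 other probes gave 0.07 to 5.11, and as variable segments are alike in sequence, which of them a probe reads is uncertain. Ighg was -4.08, -1.43, -0.67 and 0.37 in PCL and -5.78, -6.41 and -7.76 in MCL, a bound of at least 21.5-fold, but did not pass (adjusted p = 0.0542). Ighv1-9, a single variable segment, was -2.68, 0.52, -0.42 and -1.39 in PCL and -1.98, -5.55 and -7.22 in MCL (adjusted p = 0.0935), with PCL1 among the MCL values. Ighg entered the test through PCL alone. The call of Igh-VJ558 was lost without any 1 tumour other than PCL1. Of 4 light chain genes tested 1 was higher in PCL and 0 were called (median -0.82).

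Genes of the mature B cell were expressed in both types, and a few were called. Cd79a, a subunit of the B cell receptor, was 4.69, 4.29, 4.74 and 4.87 in PCL and 4.15, 4.87 and 4.79 in MCL (0.04, adjusted p = 0.929). Pax5, which plasma cells normally silence, differed by 0.52 (adjusted p = 0.27), and both genes overlapped between the types. Ms4a1, which encodes CD20, was 4.75, 3.61, 3.16 and 2.88 in PCL and 5.54, 5.45 and 4.41 in MCL (-1.53, adjusted p = 0.0578). Of 28 mature B cell genes 4 fell and 1 rose, 17.9% against 7.67% of all genes, and the list median was -0.03. Spib, an ETS factor that holds back plasma cell formation, fell from 5.30, 5.36 and 5.32 in MCL to 4.03, 2.84, 3.40 and 2.79 in PCL (-2.06 ± 0.31, adjusted p = 0.00735). This fall held in every one of the 19 alternative settings. Its relative Spi1, which encodes PU.1, moved the other way, with -2.34, -1.58, -1.50 and -1.32 in PCL and -2.69, -3.48 and -3.04 in MCL (1.38, adjusted p = 0.0217). Fcmr, the receptor for IgM, fell by 3.06 ± 0.59 on the log2 scale (4.42, 3.78, 3.71 and 2.40 against 6.87, 6.18 and 6.86; adjusted p = 0.0177). Ciita, the switch for MHC class II genes, fell by 2.39 ± 0.42 (-1.21, -2.45, -2.25 and -2.82 against 1.06, -0.06 and -0.39; adjusted p = 0.0135), and Blk, a Src-family kinase, fell by 1.26 (adjusted p = 0.0363).

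The mantle cell genes were mixed. Ccnd1, cyclin D1, was 1.22, -1.44, -0.54 and -0.92 in PCL and 2.08, 2.39 and 1.55 in MCL (-2.43 ± 0.64, adjusted p = 0.0473). Cd5 was high in MCL1 and MCL3, at 2.87 and 2.41, but at -1.45 in MCL2, within the PCL range of -1.82 to 0.04 (adjusted p = 0.261). Sox11 did not pass the filter on dim probes. Ccnd2 fell beside Ccnd1, with 0.79, 0.25, -1.28 and -1.82 in PCL and 3.16, 2.48 and 2.12 in MCL (-3.10 ± 0.60, adjusted p = 0.0172). Ccnd3 ran the opposite way, with 3.17, 3.67, 4.62 and 4.46 in PCL and 2.51, 2.42 and 2.17 in MCL (1.61 ± 0.39, adjusted p = 0.0364). All 3 D cyclins, which drive entry into the cell cycle, separated the types without overlap, as did 1455 of the 1481 called genes. PCL1 was the PCL nearest MCL for each of the 3. Of 28 G1 genes 4 fell and 1 rose (17.9%, against 7.67% of all genes), Ccne1 falling by 1.30 (adjusted p = 0.0286) and E2f4 by 0.72 (adjusted p = 0.0224). Without MCL1 none of the 5 calls held.

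Few genes of DNA replication and mitosis were called. Of 44 DNA replication genes 0 rose and 1 fell, with a median difference of 0.02, and of 45 mitosis genes 0 rose and 1, Aurkb, fell (-2.15, adjusted p = 0.0234), with a median of 0.00. Myc itself was 5.34, 4.34, 4.12 and 4.29 in PCL and 4.71, 4.44 and 4.88 in MCL (-0.16, adjusted p = 0.807), and the labels do not say whether its probe also reads the transgene. None of 13 Myc network genes and 2 of 36 nucleolar and Myc target genes were called. Trp53 was -2.38, -0.19, -0.15 and 0.17 in PCL and -2.92, -1.23 and -1.47 in MCL (1.24, adjusted p = 0.27). Of 30 p53 network genes Trp53inp1 rose by 1.17 (adjusted p = 0.0462), and Gtse1 and Trp73 fell by 0.96 and 0.86.

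NF-kB genes that were called were all lower in PCL. Of 39 tested, 5 (12.8%) fell and 0 rose, where 5.31% of all genes fell and 2.36% rose, and the list median was -0.12. Nfkbie, an inhibitor of the pathway and its target, was 1.48, 1.28, 1.31 and 1.42 in PCL and 3.18, 2.63 and 3.33 in MCL (-1.68, adjusted p = 0.0145). Bcl3, a nuclear cofactor, was 1.63, 1.09, 1.76 and 1.70 in PCL and 3.53, 2.48 and 2.89 in MCL (-1.42, adjusted p = 0.0168). Rel, a subunit active in lymphocytes, was -4.20, -5.92, -5.43 and -6.15 in PCL and -3.06, -1.57 and -3.31 in MCL (-2.78, adjusted p = 0.0145; -1.10 and 0.321 with normexp). Nfkbid fell by 1.5 (adjusted p = 0.0354) and the survival gene Bcl2a1d, whose probe may read near-identical copies, by 3.14 (adjusted p = 0.0418). PCL and MCL did not overlap for Nfkbie, Bcl3 or Rel, and Nfkbie and Bcl3 varied little within PCL. None of the 5 was called without PCL2.

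Of 14 receptors, ligands and adaptors of the BAFF, APRIL and CD40 systems 1 rose and 2 fell (21.4%). Of 24 TNF receptors 1 rose and 1 fell (8.33%), near the 7.67% of all genes. Tnfrsf13c, the BAFF receptor that keeps naive B cells alive, was 2.26, 1.16, 1.42 and 0.99 in PCL and 3.73, 3.54 and 3.1 in MCL (-2.0 ± 0.40, adjusted p = 0.0205). Prkcb, the kinase that links the B cell receptor to NF-kB, was 2.87, 2.09, 2.53 and 2.52 in PCL and 4.17, 3.90 and 4.66 in MCL (-1.74 ± 0.24, adjusted p = 0.00447), called in every one of the 19 settings, and its other probe gave -1.51. Among 35 B cell receptor genes 3 fell and 0 rose, including Ptpn6, the phosphatase SHP-1 (-1.29, adjusted p = 0.0439). The ligand Cd70 fell by 2.82 (adjusted p = 0.0275), whereas the adaptor Traf5 rose by 1.14 (adjusted p = 0.0189). Of 28 Bcl2 and death receptor genes Casp8, the initiator caspase, rose, with 1.27, 1.48, 1.63 and 1.33 in PCL and 0.45, 0.41 and 0.25 in MCL (1.06, adjusted p = 0.0145), and Bid, its substrate, fell by 0.95 (adjusted p = 0.0234). The values of Casp8 had no overlap. Map4k1, a kinase that restrains antigen receptor signals, was 4.59, 3.79, 3.99 and 3.81 in PCL and 5.6, 5.45 and 5.20 in MCL (adjusted p = 0.00806).

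Notch genes were called in both directions. Hey1 and Lfng, the glycosyltransferase that tunes Notch receptors, rose, and Lfng was -3.40, -1.81, -1.91 and -1.39 in PCL and -4.22, -7.78 and -7.20 in MCL (4.27, adjusted p = 0.0286). Hes5, another Notch-induced repressor, fell, with 0.84, -1.96, -2.11 and -3.06 in PCL and 0.97, 1.74 and 2.10 in MCL (-3.18, adjusted p = 0.0458). PCL1 lay close to MCL1 for both Hes5 and Lfng, and for Lfng MCL1 stood apart from MCL2 and MCL3. Of 30 Notch genes 2 rose and 1 fell (10.0%, against 7.67% of all genes). Of 41 Polycomb and chromatin genes 0 rose and 3 fell (7.32%), about the share over all genes. The histone methyltransferase Kmt2d fell by 1.15 (adjusted p = 0.0139), the dioxygenase Tet3 by 0.73 (adjusted p = 0.0246), and Cbx7, a Polycomb subunit, fell too. Cbx7 was not well above background on any PCL array, and the MCL level was at least 2.49-fold higher (adjusted p = 0.00225), but with normexp its difference was -0.29 (adjusted p = 0.835). The clock genes Arntl2 and Dbp fell, Dbp by 1.89 (adjusted p = 0.0211), the only calls among 16, of which 4 were higher in PCL.

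Antigen presentation and interferon genes ran lower in PCL by their medians, yet few were called and MCL1 stood apart from the other MCL. Nlrc5, the switch for MHC class I genes, was 0.84, 0.12, 0.25 and -0.35 in PCL and 3.79, 2.36 and 1.65 in MCL (-2.38 ± 0.51, adjusted p = 0.0246). It was the only call among 24 class I genes, of which 5 were higher in PCL (median -0.42). B2m, the class I light chain, was 5.24, 5.69, 5.41 and 5.57 in PCL and 7.01, 5.91 and 5.61 in MCL, so MCL2 and MCL3 were near the PCL arrays and MCL1 was above all. Of 45 interferon-stimulated genes 0 rose and 1, Herc6, fell (-1.89, adjusted p = 0.0436), and the median was -0.61. Irf7, the amplifier of the interferon response, was -5.21, -4.98, -5.03 and -4.50 in PCL and 1.02, -4.31 and -5.59 in MCL. Mx1, an antiviral GTPase, was -4.29, -5.06, -5.21 and -4.07 in PCL and 1.92, -6.43 and -5.58 in MCL. The high values belonged to MCL1 alone. The median over the 45 genes, as distance from each gene's MCL mean, was 1.81 in MCL1, -0.95 in MCL2 and -0.92 in MCL3, and -0.78 to -0.26 in PCL. Among 17 class II genes Ciita alone was called, and 5 fell in the fit without PCL1.

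Markers of other cells were searched because lymph node tumours hold more than tumour cells; in whole-tumour RNA, fewer cells of a type and less RNA per cell cannot be told apart. Macrophage markers were higher in PCL for 22 of 23 genes, with a median difference of 2.16 (1.77 with normexp), but only Cd14 (2.00, adjusted p = 0.0463) and Msr1 (2.07, adjusted p = 0.0287) were called. Csf1r, the macrophage growth factor receptor, was -0.49, 3.03, 1.89 and 2.50 in PCL and 0.72, 0.49 and -0.11 in MCL. C1qa, a complement subunit made by macrophages, was -2.45, 1.77, 0.61 and 1.05 in PCL and -1.20, -5.76 and -4.10 in MCL. PCL2 to PCL4 were above every MCL tumour and PCL1 was not. The summed level of the list, in units of the array's 75th percentile, was 32.1, 91.4, 54.7 and 59.9 in PCL and 61.8, 24.1 and 34.1 in MCL. Of the 23, 2 passed the filter through PCL alone. Without PCL1 16 of the 23 were called higher, in a fit that called 5.13% of all genes higher. Cd14 and Msr1 each lost their call without any 1 of the other 6 tumours. PCL1 was also the lowest PCL in some called genes outside the list, singled out after their values were seen: Trem2, a receptor of phagocytes (-5.14, -0.59, -2.0 and -1.86 against -5.41, -7.84 and -5.68; adjusted p = 0.0406), Clec4n, the lectin Dectin-2 (2.68), and Fcgrt, the neonatal Fc receptor (3.78). The part of macrophage RNA in these differences was not tested, and PCL1 was the lowest PCL in 64.8% of all called rises.

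Other infiltrating types had short lists. T cell markers were called at 10.5%, natural killer markers at 16.7% and granulocyte markers at 7.14%, against 7.67% of all genes. Of 19 T cell markers Cd4 and Foxp3 fell, by 0.78 and 1.47 (adjusted p = 0.0341 and 0.0286), and 8 were higher in PCL. Of 12 natural killer markers Cd244a and Prf1 fell, by 1.02 and 0.81. Of 14 granulocyte markers Elane, neutrophil elastase, fell by 1.02 (adjusted p = 0.0144), although 12 were higher in PCL. None of 11 erythroid, 9 endothelial or 12 dendritic cell markers was called. Of 16 precursor B cell genes, a stage at which Rag1 and Rag2 are active, 12 were higher in PCL with a median of 1.16, and 1 rose, namely Rag1, and 1 fell. In PCL1 that median stood at 0.06 above the MCL mean, against 1.5, 2.03 and 1.74 in PCL2 to PCL4.

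Secretory and protein-folding genes were called about as often as all genes. Of 59 unfolded protein response and secretory genes 3 rose and 1 fell, 6.78% against 7.67% of all, with a median of 0.12. The risers were Atf6, a stress sensor of the endoplasmic reticulum (1.17), Sdf2l1, a chaperone cofactor (1.24), and Pdia3, a disulphide isomerase (0.95), and Kdelr1, which retrieves chaperones, fell by 0.71. None of the 4 calls held without PCL2, PCL3, PCL4, MCL2 or MCL3, and without PCL1 9 genes of the list were higher and 3 lower. Cytosolic chaperones were higher in PCL for 25 of 30 genes, with a median of 0.45, but 2 rose, the chaperonin subunits Cct3 (0.71) and Tcp1 (0.56). Proteasome subunits were higher for 32 of 42, with a median of 0.40, and Psmc3 alone was called (0.75). Oxidative phosphorylation subunits were higher for 63 of 83, with a median of 0.25, and Ndufb3 (0.83), Ndufa1 (0.66) and Ndufa11b (0.93) rose. Cytosolic ribosomal protein genes had a median of 0.05 over 83 genes and 1 fall, Rps21 (-0.85). All 3 subunits called in oxidative phosphorylation lost their call without any 1 tumour other than PCL1.

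Metabolic genes were called in ones and pairs. The glycolytic enzymes Aldoc (2.40, adjusted p = 0.0277) and Pgk1 (0.95, adjusted p = 0.0161) rose and Hk2, a hexokinase, fell by 0.97, alongside Adm, among 33 glycolysis and hypoxia genes. Of 24 serine, glutamine and one-carbon genes 3 fell, Chac1, which degrades glutathione, by 2.06 (adjusted p = 0.024), the proline enzyme Pycr1 by 1.77 and the transporter Slc1a4 by 0.86. Cholesterol and fatty acid genes were higher for 29 of 37, with Srebf1, their transcription factor, rising by 1.54 and Hsd17b7 by 1.34. Glutathione transferases rose in 4 of 20 and fell in 0, against 2.36% and 5.31% of all genes, and Gsto1 (0.74), Gsto2 (2.82), Gstp1 (0.77) and Gstp2 (0.73) all lie on chromosome 19. Gstp1 and Gstp2 are near-identical, so their values are not separate evidence, and none of the 4 was called with normexp or without PCL2, PCL3, PCL4, MCL1 or MCL3.

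Integrins, the receptors that bind cells to matrix and to each other, rose in 6 of 19 tested and fell in 0. Over all genes 2.36% rose and 5.31% fell. The list median was 1.13 (0.84 with normexp, where 3 rose and 0 fell). Itgb4, the partner of Itga6 in binding laminin, was -0.58, 1.08, -1.24 and 1.82 in PCL and -3.97, -3.74 and -3.81 in MCL (4.11 ± 0.67, adjusted p = 0.00985), called in every one of the 19 settings. Itgb3, a receptor subunit for vitronectin and fibrinogen, was 0.28, 2.73, 1.31 and 3.31 in PCL and -2.97, -1.65 and -1.12 in MCL (3.82 ± 0.88, adjusted p = 0.031). Itgb5 was -1.47, -0.09, -0.11 and 0.10 in PCL and -4.29, -3.45 and -2.23 in MCL (2.93, adjusted p = 0.0219). All 3 beta subunits lay clear of MCL in every PCL, PCL1 included. Itga9 rose by 3.66 (adjusted p = 0.0379), and Itga3 was at least 2.86-fold higher (adjusted p = 0.0364). Itgad, which overlapped between the types and followed the order of the macrophage markers, rose by 4.23 (adjusted p = 0.0425). The lymphocyte integrins Itga4 (-0.15, adjusted p = 0.875) and Itgal (-1.18, adjusted p = 0.28) were not called. Only 1 of the 6 calls held without PCL2, PCL3, PCL4 or MCL2.

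Other surface and matrix families were split. Collagens rose in 3 of 19 and fell in 2 (26.3%, against 7.67% of all genes), with Col27a1 at least 40.4-fold higher (adjusted p = 0.00771). The collagen median was -0.26 in PCL1 against 0.38 to 2.32 in the other PCL. Of 23 semaphorins, plexins and neuropilins 3 fell and 0 rose, with a median of -0.51. Of 12 S100 proteins 2 rose and 2 fell. S100a6, a calcium-binding protein, rose from 1.21, -1.55 and -0.38 in MCL to 3.43, 3.30, 3.27 and 3.04 in PCL (adjusted p = 0.00771), S100a10 rose by 1.18, and S100a16 and S100a2 fell by 1.80 and 0.80, S100a2 measuring -0.00 with normexp. PCL1 was the highest PCL for S100a6. Among 21 extracellular proteases and inhibitors Prss12, Slpi and Timp1 (2.27), an inhibitor of metalloproteinases, rose, and Serpine2 and Spint2 (-1.0) fell. Of 72 actin regulators 6 rose and 2 fell (11.1%). The rises included Pls1, Myo1f, a myosin of leukocytes (3.66, adjusted p = 0.0145), Diaph2 (1.61) and Pfn1 (0.99). Of 60 deubiquitinases the 2 calls were sister hydrolases in opposite directions: Uchl1 rose, and Uchl3 fell from 0.04, 0.18 and 0.18 in MCL to -1.50, -1.39, -1.62 and -1.72 in PCL (-1.69, adjusted p = 0.00233).

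**Figure D3:**
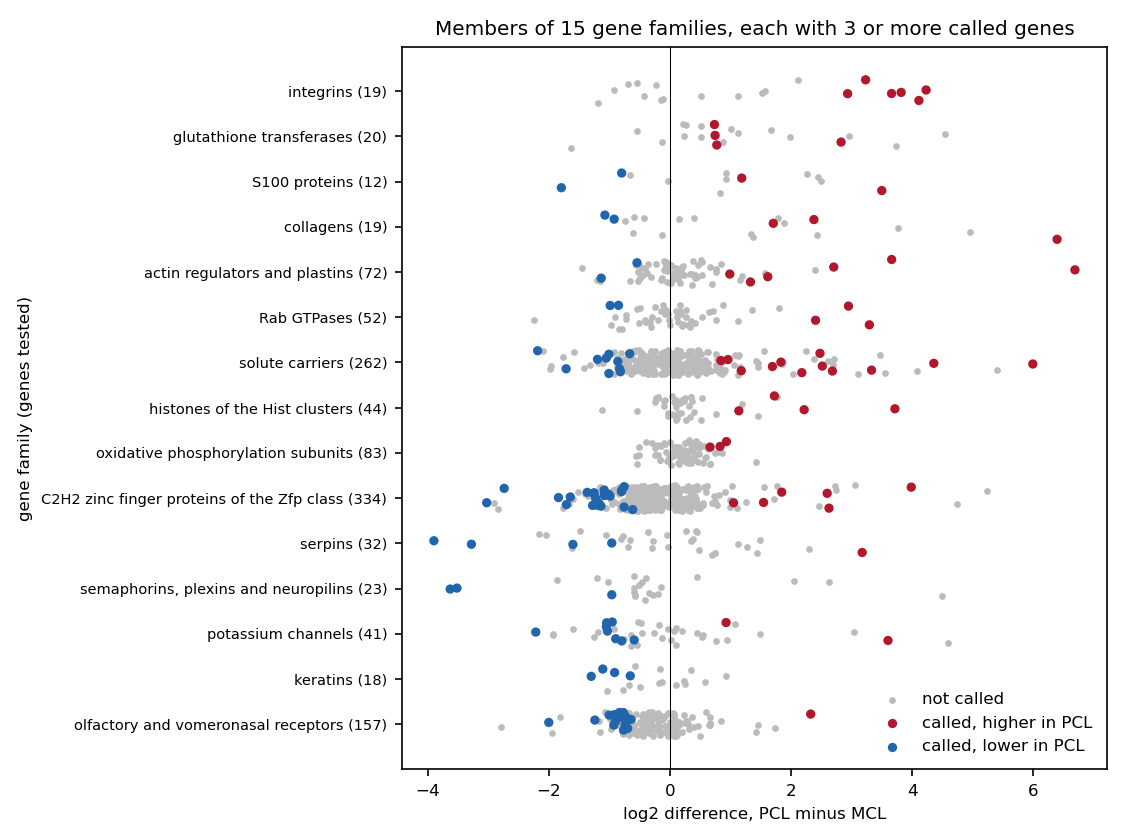
PCL minus MCL difference (log2) of each tested member of 15 gene families, called members marked. The 6 called integrins all lie above 0, between 2.93 and 4.23, and the 4 called glutathione transferases between 0.73 and 2.82.

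Histone genes of the replication-dependent clusters rose in 4 of 44 and fell in 0, where 2.36% of all genes rose and 5.31% fell. With normexp 1 rose. Only 1 or 2 of the 4 calls held without any 1 tumour other than PCL1. H2bc4 was 3.28, 3.68, 3.84 and 4.03 in PCL and 1.60, 2.10 and 0.78 in MCL (2.21 ± 0.39, adjusted p = 0.0124), and H2ac18 rose by 1.72, H2bc23 by 3.71 and H2bc22 by 1.14. The H2b genes are near-identical in sequence, so a probe may read more than its own gene.

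Large families of dim genes leaned to falls that normexp did not keep. Of 157 olfactory and vomeronasal receptors that passed the filter, out of 1335 on the array, 15 fell and 1 rose, with a median of -0.36, and with normexp 0 were called and the median was 0.38. Potassium channels rose in 2 and fell in 8 of 41 (24.4%, against 7.67% of all genes), with medians of -0.46 and, with normexp, 0.28. Keratins fell in 4 of 18 (22.2%) and none rose, with medians of -0.34 and 0.14. The Zfp class of zinc finger proteins, transcription factors most of which are repressors, rose in 6 and fell in 23 of 334, and with normexp rose in 1 and fell in 1. Solute carriers were even, with 12 rises and 10 falls of 262 (1 rise and 0 falls with normexp). No direction is therefore drawn for these families.

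**Figure D4:**
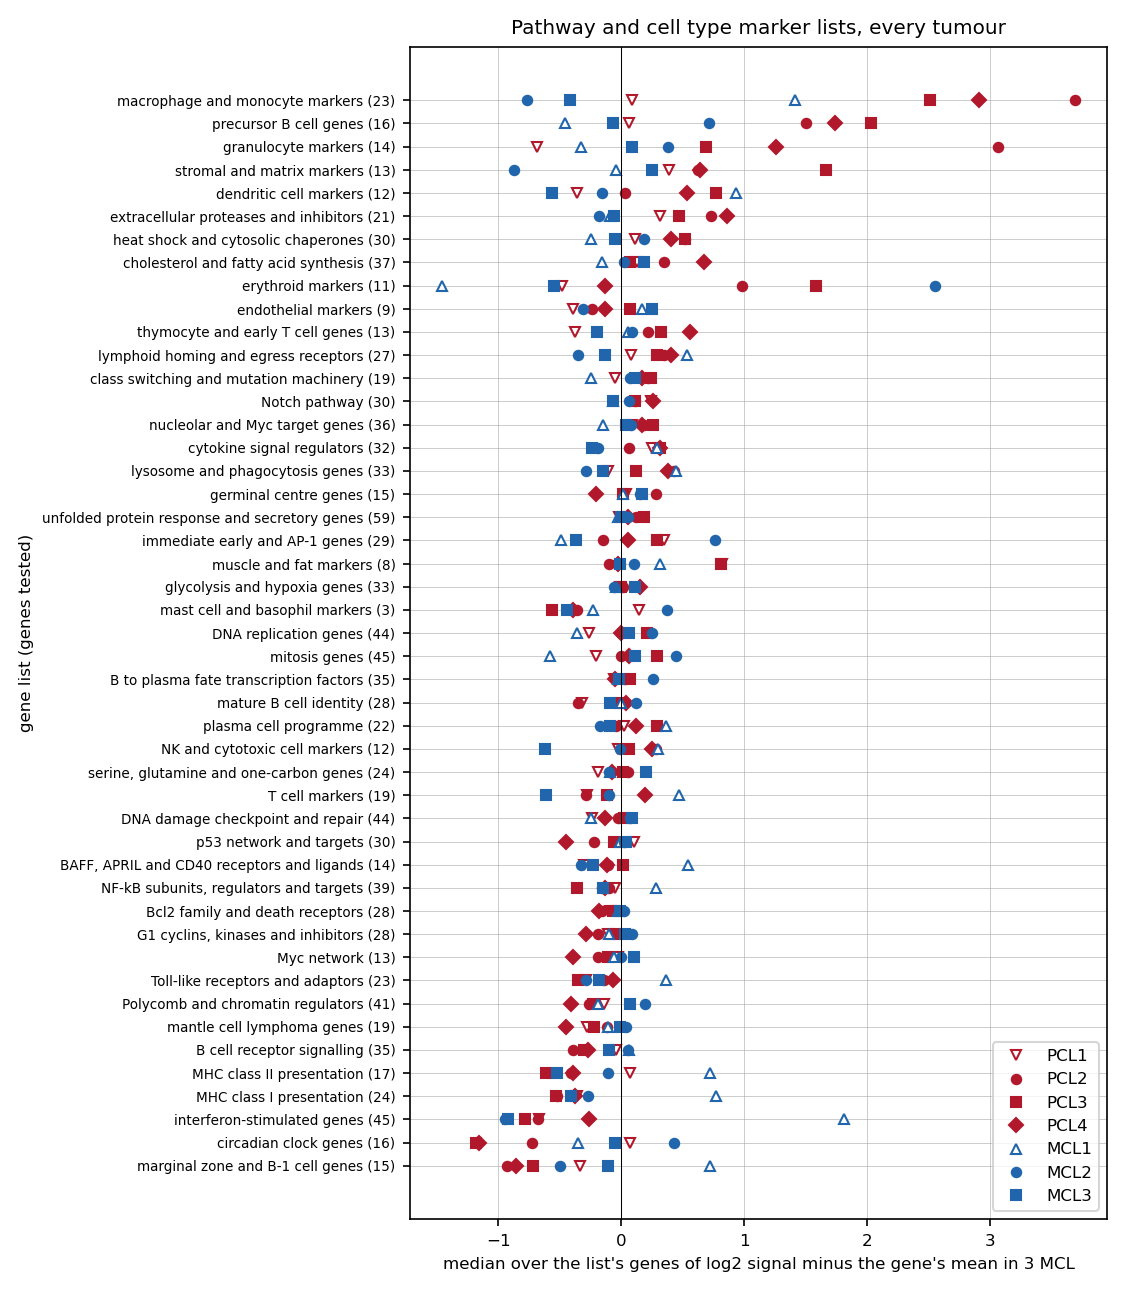
Median distance from the MCL mean (log2) of marker and pathway lists in each tumour. For the macrophage list PCL1 sits at 0.09 and PCL2 to PCL4 at 2.51 to 3.69, and for the interferon list MCL1 sits at 1.81 while the other tumours sit below 0.

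The tumours did not agree equally on these differences. PCL1 was the lowest PCL in 295 of the 455 rises (64.8%) and the highest in 484 of the 1026 falls (47.2%). In the rises its median distance above the MCL mean was 1.40, against 2.14 to 2.18 in the other PCL. Over all tested genes PCL1 correlated with PCL2 to PCL4 at 0.945 and with MCL at 0.945, while PCL2 to PCL4 correlated with each other at 0.979 and with MCL at 0.921. These correlations share array design and gene brightness and are descriptions. The fit without PCL1 gave 2565 calls (13.3%).

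Each tumour was then set against genes called in a fit without it, which share the remaining tumours with the main comparison. PCL2 lay nearer the mean of the other PCL than the MCL mean in 97.9% of such genes (370 of 378), against 74.2% of all genes. PCL3 and PCL4 gave 96.5% and 97.2%. PCL1 sat nearer PCL in 49.5% (1270 of 2565), against 48.1% of all genes, with 33.5% for the rises and 59.6% for the falls. MCL1, MCL2 and MCL3 sat on the MCL side in 74.7%, 81.8% and 79.9%, against 56.8%, 59.0% and 61.6% of all genes. For the genes that separated PCL2 to PCL4 from MCL, PCL1 was therefore on the PCL side about as often as over all genes.

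**Figure D5:**
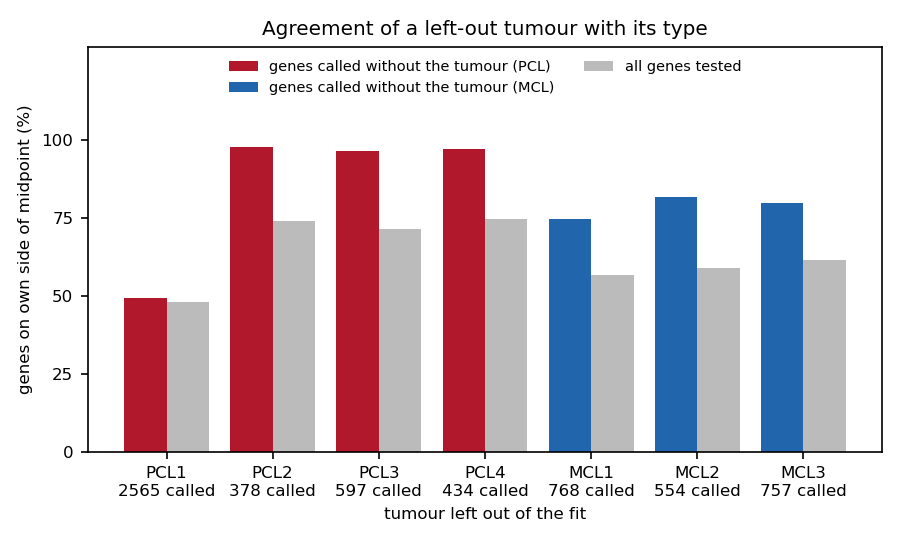
Share of genes called without a tumour in which that tumour lies nearer its own type, beside the share over all genes. PCL2 to PCL4 reach 96.5% to 97.9%, the MCL tumours 74.7% to 81.8% and PCL1 49.5%.

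A set of 117 genes, 48 higher and 69 lower, was called in the fit reported here and in every alternative setting that tested them. All 19 settings tested 96 of these genes, and 18 settings tested the other 21. Among the 21 were Rag1, Prss12, Uchl1, Hey1, Pls1, Col27a1 and Tnfrsf21, for which no MCL array was well above background. These genes entered the test through PCL alone and had to differ. The setting that asked for signal above background on all 7 arrays did not test them. In each of the 117 PCL1 lay beyond all MCL. Most of those fits included PCL1, so this was nearly fixed by the choice of genes. Over all calls PCL1 lay above all MCL in 437 of 455 rises and below all MCL in 1020 of 1026 falls. Of the 117, 98 were also called with normexp without the offset and 117 with the offset added to the processed signal. Of the 63 with a gene name 44 rose and 19 fell. Rag1, Prss12, Uchl1, Hey1, Slpi, Pls1, Col27a1 and Itgb4 were among the rises, as were Apoc2, an apolipoprotein (-0.30, 3.06, 2.37 and 0.66 against -4.46, -5.35 and -5.22), and Maged1, an adaptor of the MAGE family (-0.54, -1.32, -0.75 and -0.46 against -4.93, -5.12 and -4.81; adjusted p = 0.000163). Cotl1, an actin-binding protein, was 4.63, 4.96, 5.13 and 5.43 in PCL and 3.11, 1.30 and 3.35 in MCL (adjusted p = 0.0128). Cd55, which protects cells from complement, rose by 1.84 and Irs1, an adaptor of the insulin receptor, by 5.34, and Tnfrsf21, a death receptor, was at least 11.6-fold higher. Spib, Prkcb, Uchl3 and Map4k1 were among the falls, as was Il4i1, an amino acid oxidase induced by interleukin 4 (-1.10, 0.09, 0.72 and -0.48 against 2.99, 2.49 and 2.11; adjusted p = 0.00898). Lyar, a nucleolar protein, fell by 2.57 and Nos2, the inducible nitric oxide synthase, by 1.34. PCL1 lay below all MCL for Spib and Prkcb, whereas it lay below all MCL for Csf1r and among them for C1qa.

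The median difference varied by chromosome, in mm9 positions given by the array files. Among genes of chromosome 6 brighter than the median gene the median difference was -0.45, at -0.53, -0.56 and -0.63 in PCL2 to PCL4 and -0.05 in PCL1, and 72 of 987 tested genes (7.29%) fell, against 5.31% of all. Chromosome 7, which holds Spib and Iglon5, had a median of -0.31, with -0.58, -0.19 and -0.40 in PCL2 to PCL4 and -0.05 in PCL1, and 130 of 1532 (8.49%) fell. Chromosome 11 had a median of 0.27, at 0.04 in PCL1 and 0.29 to 0.38 in the other PCL, and chromosome 12 one of 0.26, at 0.13 in PCL1 and 0.20 to 0.48 in the others. PCL1 was the highest PCL on chromosomes 3 and X, at 0.42 and 0.33, where the others lay at 0.04 to 0.12 and 0.02 to 0.15. On chromosome 1 the median of 0.26 came from PCL1 and PCL3, at 0.45 each, with 0.05 and 0.06 in PCL2 and PCL4.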

How the data were processed

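Cy3 brightness of 11 tumours was read from 1-colour Agilent arrays, and 7 were compared. The scanner files give spot intensity on a linear scale, extracted by the authors with version 10.7.3.1 of Agilent Feature Extraction and, per the file headers, not normalized between arrays. The deposited value table holds log2 values of the same arrays, a scale found from the data, and served as an alternative.

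Here control spots and outlier flags were left out, spots of a probe averaged, and log2 of the processed signal set relative to the array's 75th percentile (1067 to 1632 intensity units). Of 39429 probes, 24193 were well above background on at least 3 of the 7 arrays, and the brightest such probe stood for each of 19307 genes, 13281 of them with a gene name. Probes were named through RefSeq tables by accession (26553), current symbol (2596) or former symbol (492), and for 9742 the file's own name was used. Between 21.5% and 29.2% of spots held a value that the software substitutes below background.

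limma 3.58.1 in R 4.3.3 fitted all 11 arrays (8 residual degrees of freedom), with Benjamini-Hochberg adjustment over all genes, and every adjusted p is from limma. The scripts were tested on simulated data. A fold given as "at least" sets the brighter group's mean against, per array of the dim group, the probe's own signal or, if higher, the dimmest signal that still counted as well above background.

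Named genes were the 12 largest rises and falls, the called members of the lists with the smallest adjusted p, and 21 genes fixed by name; Apoc2, B2m, C1qa, Cotl1, Csf1r, Il4i1, Ighg, Ighv1-9, Irf7, Irs1, Itga4, Itgal, Lyar, Map4k1, Mx1 and Nos2 were chosen after their values were seen. The comparison, the 117 gene lists and the tests were chosen with earlier results of these data known, and the name patterns of several families were tightened, with values already seen, to drop genes that are not members. Replicate numbers are slide positions. Deviations of same-numbered arrays correlated at 0.083, -0.012 and 0.108. These correlations had no reference to be set against, so they cannot decide whether position had a shared effect. The main fit did not use position. Alternatives covered the background correction, scaling, dim-probe filter, fit, probe choice and each tumour left out, with 2 on the offset added after the values were seen. Promoter windows are RefSeq, GRCm38.p6, and array positions are mm9, so coordinates of the 2 builds were not joined.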

Additional observations from a re-analysis of the deposited data

Results flagged for a closer look

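Of 151 named genes and 117 list medians examined over the 4 PCL tumours, 15 had 1 tumour far from the rest. That number is near the share of about 1 in 20 that chance alone would give for independent items. The items here are not independent, as lists share genes and all share the same tumours. The cause of the outlying values was not tested. In 14 of the 15 that tumour was PCL1. In 9 of the 10 genes among these, PCL1 was the lowest PCL in a gene that rose. PCL1 stood at -2.02 for Arap3, with the other PCL between 1.27 and 1.59, at 3.38 for Rd3l, at -3.81 for Tdrd9, with the other PCL between 1.46 and 1.59, and at -5.40 for Trim63. It stood at -4.80 for Itgad, -1.47 for Itgb5 and -4.13 for Tnfrsf21, where the other PCL lay between -1.94 and -1.77. PCL1 stood at 0.90 for Ndufa11b, with the other PCL between 1.38 and 1.48, and at -6.99 for Epha2, with the other PCL between -2.20 and -1.39. The remaining gene, Trp53, was not called, and PCL1 stood at -2.38 with the other PCL between -0.19 and 0.17.

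Among list medians, as distance from the MCL mean, PCL1 was at -0.03 for mitochondrial ribosomal proteins (0.23 to 0.27 in the other PCL), 0.22 for proteasome subunits (0.39 to 0.42), -0.01 for Fc receptors (0.15 to 0.18) and -0.04 for cytochrome P450 (-0.38 to -0.33). PCL4 stood apart in glycolysis and hypoxia genes, at 0.15 (-0.01 to 0.01 in the other PCL).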

How the results depend on the processing

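The 1481 calls (455 higher, 1026 lower) moved by over 1.5 times under these settings: 227 (108 higher, 119 lower) with normexp, 686 (198 and 488) with no filter on dim probes, 891 (283 and 608) with the 7 arrays alone in the fit, 139 (67 and 72) with normexp without the offset, a setting added after the values were seen, and 4542 (1835 and 2707) with array weights, which set PCL1 at 0.372. With array position as a replicate block 458 were called (148 higher, 310 lower), 418 of them among the 1481. Whether position had a shared effect was not settled. Leaving out 1 tumour at a time gave 378 (without PCL2) to 2565 (without PCL1) calls, 97 to 990 of them higher and 281 to 1575 lower. Quantile normalization, median scaling, the authors' value table and the remaining settings gave 1151 to 1669. Calls were 30.7% higher in PCL, 47.6% with normexp and 40.4% with array weights. The mean correlation between PCL and MCL tumours was 0.927, and 0.958 with no filter on dim probes; the cause was not tested. Over the 128 named called genes, 1575 of 2395 repeats kept the call and direction, 819 kept the direction only and 1 reversed, Arhgap19, at 0.11 with no filter, where another probe stands for the gene. In 25 of the 128 every repeat kept the call. With 21.5% to 29.2% of spots at a substitute value, differences of dim genes are the least certain.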

Other observations

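For families outside the text above, the shares called are set beside 7.67% of all genes, 2.36% higher and 5.31% lower. Of 25 ligands and receptors of the TGF-beta and BMP families 0 rose and 5 fell, Tgfb1 by 0.69 (adjusted p = 0.028). C-type lectins were split: Klrb1 (3.82) and Clec4n rose, while Clec2d (-2.48) and Clec2g fell, among 33 (12.1%). With normexp 0 of the lectins were called. Of 52 Rab GTPases, which direct vesicle traffic, 3 rose and 2 fell (9.62%), Rab31 rising by 2.95 (adjusted p = 0.0163). With normexp 1 Rab gene rose and 0 fell. Epha2, an ephrin receptor, had a PCL level at least 7.04-fold above MCL (adjusted p = 0.0353), the only rise among 22 growth factor receptors, of which 3 fell (18.2% called). With normexp 0 of these receptors were called.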
